A study of Mus musculus with 2 samples.

Results

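The interleukins outside the interleukin 1 family, with the chains of their receptors, were followed in colon RNA of mice on 2 diets. They were the probe sets that name exactly 1 gene whose symbol starts with Il and a number in the platform annotation, leaving out the interleukin 1, 18, 33, 36 and 37 groups. This gave 58 probe sets for 58 genes, out of 22180 genes measured by a probe set of their own. Of these 29 encode cytokines and 29 encode receptor chains, among which the decoy chains Il13ra2 and Il22ra2 were counted. The rule itself reads gene names and no intensity.

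Total RNA came from whole colons of healthy male ICR mice, an outbred stock, aged 7 weeks. The control group ate a diet without psyllium, and the other group a diet with 10% psyllium, a viscous fibre of seed husks, for 5 days. The labels name no deletion, transgene or other agent in either group. Each diet is represented by 1 whole-transcript array, and neither the number of mice behind it nor the layers of colon wall in it are given in the labels. There is therefore no replicate error, no test and no p-value anywhere in what follows, and each difference is between these 2 arrays only.

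Interleukins are small secreted proteins through which immune, epithelial and stromal cells signal, usually made by few cells and in short bursts. Most of those described here bind pairs of receptor chains that carry JAK kinases and switch on STAT transcription factors. The interleukin 17 receptors work instead through the adaptor Act1, encoded by Traf3ip2. In the gut, lymphocytes make interleukins 17 and 22 and the epithelium carries their receptors, a circuit known for driving antimicrobial genes. Interleukins 4 and 13 are known for their actions on goblet cells and smooth muscle, and interleukin 10 for restraining inflammation.

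The deposited values are normalised intensities on a linear scale, given below as control and then psyllium. A difference is log2 psyllium minus log2 control. A gene is called higher or lower when it differs by at least 1.5-fold, which is 0.58 on the log2 scale. The median difference over all 22180 genes was -0.0025. Probes bind with different strength, so an intensity does not rank the RNA amount of 1 gene against that of another. In bulk tissue, fewer cells of a type and less RNA per cell cannot be told apart.

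Few cytokine genes and many more receptor genes reached an intensity above 70. On at least 1 array 4 of 29 cytokine genes (13.8%) and 12 of 29 receptor genes (41.4%) exceeded it, where 49.8% of all genes did. The cytokines were Il15, Il17d, Il27 and Il34. The receptor chains were Il4ra, Il7r, Il13ra1, Il15ra, Il6ra, Il6st, Il10rb, Il22ra1, Il17ra, Il17rc, Il17rd and Il17re. On both arrays 3 cytokine genes and 11 receptor genes exceeded 70, where 45.9% of all genes did.

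The genes nearest to 70 were as follows. Just above it lay Il34 (66.8 and 75.2) and Il7r (74.8 and 52.9), each past it on a single array. Just below it on both arrays lay Il25 (53.8 and 66.6), Il7 (65.1 and 49.0), Il27ra (58.0 and 64.5) and Il3ra (62.7 and 56.1). As a measure of what the arrays give for genes of another tissue, 18 of 1105 olfactory receptor genes (1.63%) exceeded 70. That comparison was chosen after the values were seen. An intensity below 70 is not an absence of RNA, and no detection calls were used.

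**Figure D1:**
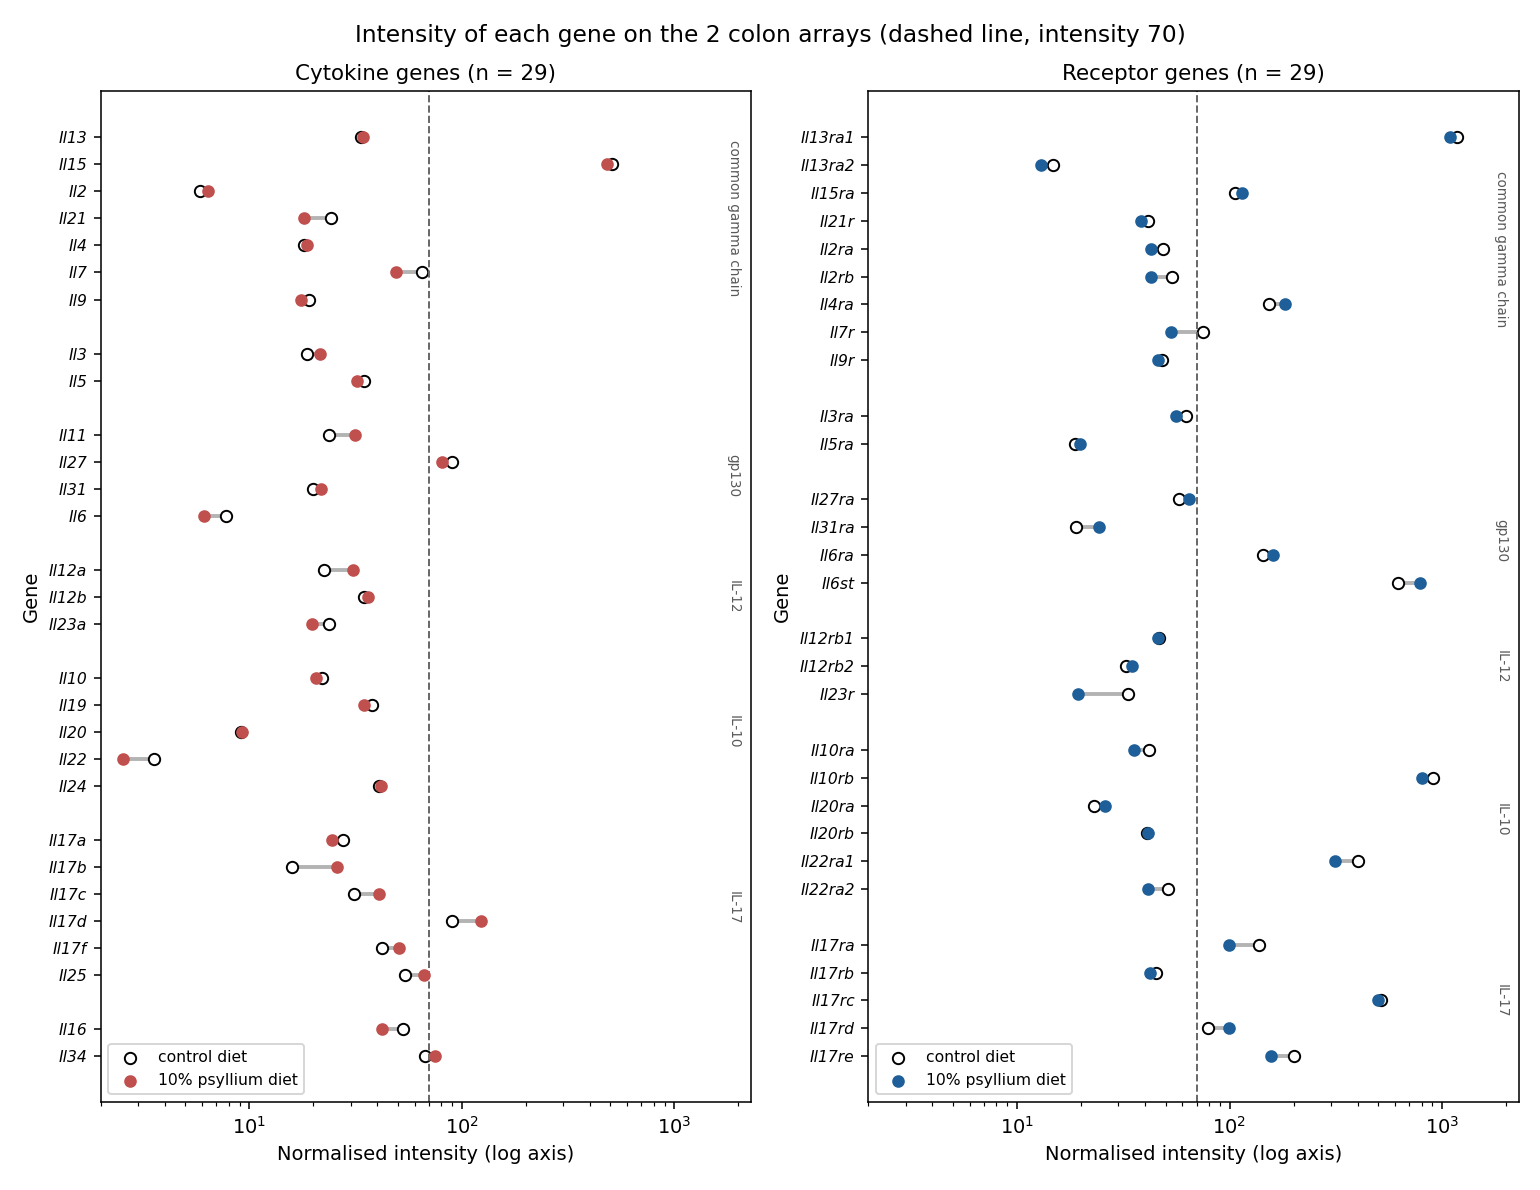
Normalised intensity (log axis) of 29 cytokine genes (left) and 29 receptor genes (right) for the control diet (open circles) and the psyllium diet (filled circles), 1 array per diet, ordered by family with the larger families named at the right edge. Circles to the right of the dashed line exceed 70, which 4 cytokine genes and 12 receptor genes did on at least 1 array.

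Differences between the diets were small in both classes. In all, 56 of 58 genes stayed inside 1.5-fold, among them the 16 genes above 70 on either array. Of all 11048 genes above 70 on either array, 6.44% were called. The cytokine gene called higher was Il17b, and the receptor gene called lower was Il23r. No cytokine gene was called lower and no receptor gene higher. These 2 calls are 3.45% of the 58 genes, where 6.23% of all genes were called in either direction (3.42% higher and 2.81% lower). The share of interleukin genes called was thus not above that of all genes.

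Il23r, the chain specific to the interleukin 23 receptor of innate and T lymphocytes, had intensities of 33.4 and 19.3, 1.73-fold lower on the psyllium array. Il17b, which encodes a ligand of Il17rb, had 15.9 and 25.8, 1.62-fold higher. Both stayed below 70 on both arrays. Of the 11132 genes that did so, 6.01% were called (2.82% higher and 3.19% lower), and of the olfactory receptor genes 12.9% were. With a pseudocount of 16 neither gene passed 1.5-fold, with differences of -0.49 for Il23r and 0.39 for Il17b.

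The median difference was 0.03 over the 29 cytokine genes, of which 16 were positive and 13 negative as deposited. Over the 29 receptor genes it was -0.09, with 11 positive and 18 negative. The cytokine median changed sign, to -0.0085, when the trend with intensity was removed, so it has no settled direction. The receptor median ran from -0.11 to -0.07 over the alternatives run. Genes that differed by at least 0.3 in either direction numbered 11 cytokine genes and 10 receptor genes, or 36.2% of the 58, where 25.9% of all genes did.

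**Figure D2:**
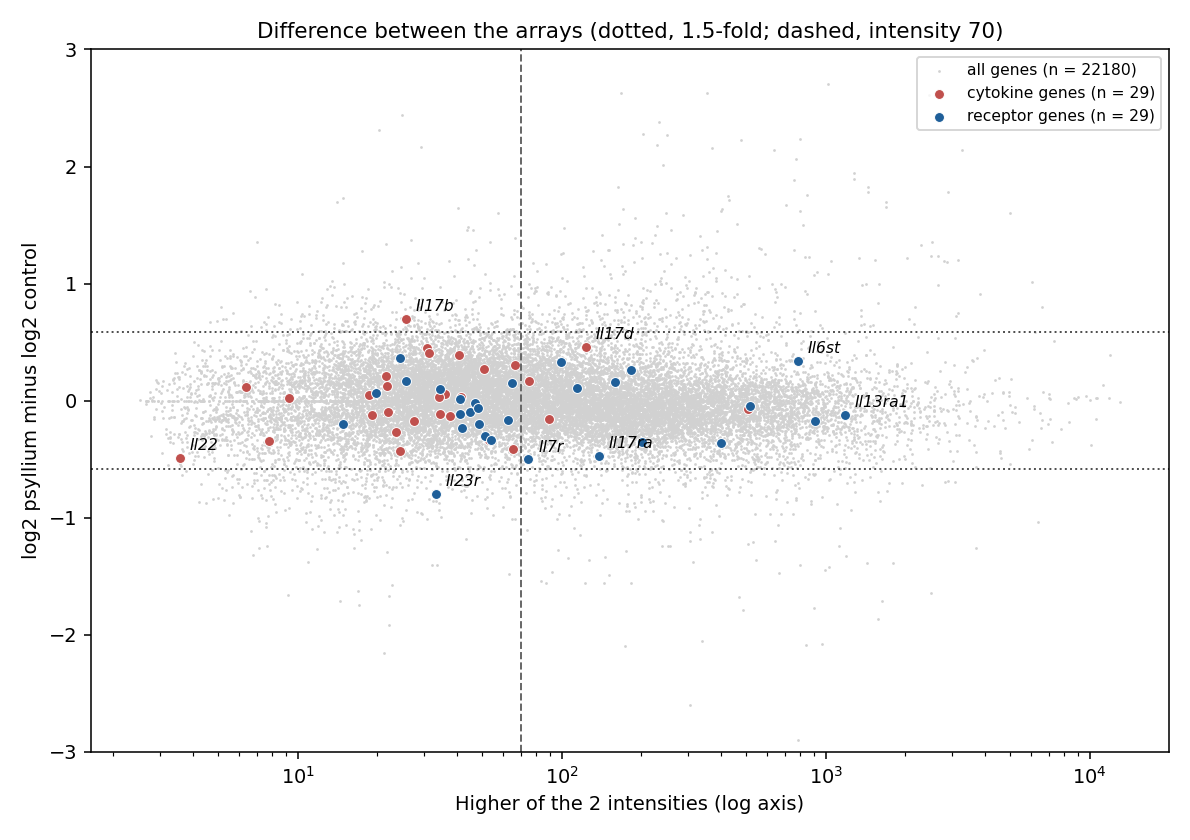
Log2 difference, psyllium minus control, against the higher of the 2 intensities (log axis) for 22180 genes (grey), 29 cytokine genes (red) and 29 receptor genes (blue), with 1 array per diet. Dotted lines mark 1.5-fold and the dashed line marks 70. Il17b and Il23r lie outside the dotted lines, both left of the dashed one, and 1 grey gene lies beyond the plotted range.

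Ligands and the receptor chains they bind were set side by side from textbook pairings, counting only chains among the 58 genes. Shared chains with other names, such as Osmr for interleukin 31 and Csf2rb for interleukins 3 and 5, were not counted, and both exceeded 70 on at least 1 array. Of 26 ligands with a measured receptor chain, 24 stayed below 70. For 13 of those 24 at least 1 receptor chain exceeded 70, and for 8 every counted chain did. The 8 were Il4, Il6, Il7, Il11, Il17a, Il17c, Il17f and Il22. Decoy chains were not treated alike in these pairings. Il13ra2 was counted for Il13, whose other chains Il4ra and Il13ra1 exceeded 70, while Il22ra2 (51.1 and 41.4) was not counted for Il22. With both decoys counted Il22 would leave the 8, and with neither counted Il13 would join them. For the other 11 of the 24 no counted chain exceeded 70 either, among them Il2, Il5, Il12a, Il23a and Il31. Il15 and Il27, the 2 paired ligands above 70, each had 1 of 2 chains above it. The common gamma chain Il2rg and the interleukin 11 receptor Il11ra1 were not analysed here.

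For 2 of these pairs the promoter sequences are shown, to let a reader see them beside the values, and no link between sequence and intensity is drawn. Il6, the inflammatory cytokine, had intensities of 7.78 and 6.13, and Il6st, its signalling chain gp130, had 621 and 787. Il13, the type 2 cytokine, had 33.5 and 34.3, and its receptor chain Il13ra1 had 1181 and 1085. The 250 bases before each gene's start, from RefSeq's GRCm38.p6, are printed 5′ to 3′ on the gene's own strand, with each CG dinucleotide in capitals. CG reads the same on both strands. The Il6 window (plus strand) is chr5:30012864-30013113, the Il6st window (plus) chr13:112463820-112464069, the Il13 window (minus) chr11:53634703-53634952 and the Il13ra1 window (plus) chrX:36111858-36112107.
Il6: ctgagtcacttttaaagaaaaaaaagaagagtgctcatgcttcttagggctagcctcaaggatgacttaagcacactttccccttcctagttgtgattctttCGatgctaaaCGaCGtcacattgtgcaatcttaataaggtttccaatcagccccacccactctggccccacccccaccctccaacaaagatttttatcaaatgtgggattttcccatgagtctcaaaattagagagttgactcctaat
Il6st: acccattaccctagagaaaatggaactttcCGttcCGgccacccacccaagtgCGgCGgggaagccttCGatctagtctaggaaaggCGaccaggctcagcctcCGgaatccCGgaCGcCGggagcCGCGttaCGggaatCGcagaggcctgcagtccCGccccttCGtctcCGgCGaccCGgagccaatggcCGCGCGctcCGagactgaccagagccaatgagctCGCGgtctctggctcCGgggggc
Il13: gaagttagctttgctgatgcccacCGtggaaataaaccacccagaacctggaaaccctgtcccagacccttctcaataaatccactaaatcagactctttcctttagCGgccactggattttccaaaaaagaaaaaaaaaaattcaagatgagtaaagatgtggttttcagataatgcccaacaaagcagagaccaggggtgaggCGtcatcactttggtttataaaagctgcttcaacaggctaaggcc
Il13ra1: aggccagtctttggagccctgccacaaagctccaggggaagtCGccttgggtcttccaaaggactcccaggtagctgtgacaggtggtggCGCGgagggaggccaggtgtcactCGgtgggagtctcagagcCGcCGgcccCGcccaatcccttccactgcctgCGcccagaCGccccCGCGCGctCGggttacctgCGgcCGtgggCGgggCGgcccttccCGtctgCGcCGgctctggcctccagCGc
The cytokine windows held 3 CG each, and those of Il6st and Il13ra1 held 26 and 21. Of the 32851 windows of this length in the table, 37.8% held at least 10.

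Another 2 genes had the other combination. Il17re, the epithelial receptor of interleukin 17C, had intensities of 201 and 157 with 2 CG in its window. Il3ra, the interleukin 3 receptor chain, had 62.7 and 56.1, just below 70, with 27 CG. Both windows are on the plus strand, at chr6:113458521-113458770 and chr14:14346245-14346494.
Il17re: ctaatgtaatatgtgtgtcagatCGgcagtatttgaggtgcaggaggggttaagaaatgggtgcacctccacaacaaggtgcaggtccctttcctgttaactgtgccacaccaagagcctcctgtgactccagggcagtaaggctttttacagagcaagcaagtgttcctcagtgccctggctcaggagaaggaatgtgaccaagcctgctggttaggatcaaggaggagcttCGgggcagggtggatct
Il3ra: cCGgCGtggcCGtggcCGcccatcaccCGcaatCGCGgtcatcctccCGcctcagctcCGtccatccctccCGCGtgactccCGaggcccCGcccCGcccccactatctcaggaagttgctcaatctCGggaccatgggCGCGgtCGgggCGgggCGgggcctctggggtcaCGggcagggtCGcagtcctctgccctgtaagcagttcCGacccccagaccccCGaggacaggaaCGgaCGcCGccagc
Only 42 of the 58 genes (72.4%) had a window in the table. That is under 80%, so any check of CG content over the whole set is void, and none is given. The 6 genes printed were chosen after their values were seen.

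Within the common gamma chain family, most of whose receptors share the chain encoded by Il2rg, Il15 was the cytokine above 70. Il13, Il13ra1 and Il13ra2 were counted in this group, though the receptor of Il4ra and Il13ra1 does not hold that chain. Il15, which sustains intraepithelial lymphocytes and natural killer cells, had intensities of 507 and 484, a difference of -0.07. Its private receptor chain Il15ra had 106 and 114 (0.11). The 2 arrays were thus close for both. Il7, an epithelial and stromal factor for lymphocyte survival, had 65.1 and 49.0, a difference of -0.41. Its receptor chain Il7r, carried by T cells and innate lymphoid cells, had 74.8 and 52.9 (-0.50). Both the ligand and the receptor chain were lower on the psyllium array, by less than 1.5-fold.

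The type 2 receptor chains of this family were above 70. Il4ra, the chain shared by the receptors for interleukins 4 and 13, had 153 and 183, a difference of 0.26. Il13ra1 differed by -0.12. The decoy Il13ra2 stayed low at 14.8 and 12.9 (-0.20). Their ligands Il4 (18.0 and 18.6) and Il13 differed by 0.05 and 0.03. Other chains of this family stayed below 70. Il2rb, part of the receptors for interleukins 2 and 15, had 53.7 and 42.7 (-0.33), and Il2ra 48.7 and 42.5 (-0.20). Il21r (-0.11) and Il9r (-0.06) differed less. The T cell cytokines Il2 (5.86 and 6.36), Il9 (19.1 and 17.6) and Il21 (24.3 and 18.0) differed by 0.12, -0.12 and -0.43.

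Most markers of T and NK cells were lower on the psyllium array. Of 9 such markers 6 were called lower and 0 higher, where 2.81% of all genes were called lower. The 9 had summed intensities of 815 and 473. Differences were negative for 8 of the 9 and positive for Cd3d (23.9 and 31.8, 0.41). Cd3d was picked out for its direction, with the values known. Of the 9 markers 4 stayed below 70 on both arrays, Cd3d among them. None of the 9 was at 0, and 3 exceeded 70 on both arrays. Their median difference was -0.77. Receptor genes typical of lymphocytes ran from Il23r (-0.79), Il7r (-0.50) and Il2rb (-0.33) to Il9r (-0.06), Il12rb1 (-0.02) and Il12rb2 (0.10). Between them lay Il10ra (-0.23), Il2ra (-0.20) and Il21r (-0.11). This grouping was made after the values were seen. Il27ra, also found on lymphocytes but left out of it, differed by 0.15. The part of lymphocyte RNA in these differences was not tested.

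The interleukin 3 and 5 genes, which act on mast cells, basophils and eosinophils, were all below 70. Il3 had 18.7 and 21.6 and Il5 34.6 and 32.0, differences of 0.21 and -0.11. Their receptor chains Il3ra and Il5ra differed by -0.16 and 0.07. All 4 genes were well inside 1.5-fold. Of 6 mast cell and eosinophil markers 2 were at least 1.5-fold lower, with summed intensities of 846 and 938. Most of that sum was Kit (574 and 746), which also marks interstitial cells in the gut wall, and the other 5 summed to 272 and 192. Their part in these values was not tested.

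The 4 receptor chains of the gp130 family among the 58 genes all had positive differences. Of chains under other names, Osmr differed by 0.38, Lifr by -0.07 and Cntfr by -0.10. Lifr and Cntfr were named after their values were seen. Il6st, the signal-transducing chain shared by interleukins 6, 11 and 27, differed by 0.34 (621 and 787). Il6ra, the chain that binds interleukin 6, had 143 and 160 (0.16). Both were above 70 on both arrays. Il27ra (58.0 and 64.5) and Il31ra (18.9 and 24.4), chains of the receptors for interleukins 27 and 31, differed by 0.15 and 0.37. None of the 4 reached 1.5-fold, and Il27ra and Il31ra stayed below 70.

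Ligands of the gp130 family went both ways. Il27, a subunit of a cytokine of myeloid cells, had 89.6 and 80.3, a difference of -0.16. Il11, a cytokine of stromal cells, had 23.6 and 31.4 (0.41), and Il31 20.0 and 21.8 (0.12). Il6 differed by -0.34 at intensities of 7.78 and 6.13. Smooth muscle and fibroblast markers were higher on the psyllium array, which is given here because stromal cells are known sources of Il11 and carriers of Il6st. All 6 smooth muscle markers were at least 1.5-fold higher, with summed intensities of 10571 and 25541. Of 6 fibroblast markers 5 were, with 2919 and 7316. Their part in the Il6st and Il11 differences was not tested.

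No gene grouped here in the interleukin 12 family, which directs T cells towards type 1 and type 17 responses, exceeded 70. Il27, which did exceed it, and Il27ra can also be placed in that family but were counted under gp130. The subunits Il12a (22.6 and 30.9), Il12b (34.8 and 36.1) and Il23a (23.7 and 19.7) differed by 0.45, 0.06 and -0.27. The shared receptor chain Il12rb1 had 46.8 and 46.1 (-0.02), and Il12rb2, specific to interleukin 12, had 32.4 and 34.7 (0.10). Il23r thus stood apart from the 2 chains with which it shares this family, though at low intensity.

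In the interleukin 10 family the 2 receptor chains above 70 were those of the interleukin 22 receptor. Il10rb, shared by the receptors for interleukins 10 and 22, had 907 and 804, a difference of -0.17. Il22ra1, the epithelial chain specific to interleukins 20, 22 and 24, had 401 and 312 (-0.36). Il22ra2, the soluble decoy that binds interleukin 22, had 51.1 and 41.4 (-0.30). All were lower on the psyllium array by less than 1.5-fold. Il22 itself lay near the bottom of the scale, at 3.57 and 2.54. Il10ra, the leukocyte chain of the interleukin 10 receptor, had 41.7 and 35.5 (-0.23), and Il10 22.0 and 20.6 (-0.09). The related Il20ra and Il20rb differed by 0.17 and 0.02, and Il19, Il20 and Il24 by between -0.13 and 0.03.

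Beside the interleukin 22 receptor, 6 of 7 measured colon epithelium markers had negative differences with a median of -0.37. Their summed intensities were 31013 and 29169. All 7 exceeded 70 on both arrays, with Cdx2, a transcription factor of intestinal identity, at 933 and 665, and Muc2, the goblet cell mucin, at 9087 and 11892. The labelled tissue thus showed its markers on both arrays. Their part in the Il22ra1 and Il10rb differences was not tested.

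The interleukin 17 family had most of its receptor chains above 70. Il17rc, which pairs with Il17ra to bind interleukins 17A and 17F, had 515 and 498, a difference of -0.05 whose sign turned after repeated quantile normalisation and after removal of the trend with intensity. Il17ra, the chain shared across the family, had 138 and 99.2 (-0.47). Il17re differed by -0.36. Il17rd, a member known as a modulator of FGF signalling, had 79.0 and 99.3 (0.33). The chains thus did not move in a single direction, and none reached 1.5-fold. Il17rb, the chain for interleukins 17B and 25, had 45.0 and 42.2 (-0.09).

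Of the 6 interleukin 17 ligand genes 5 had positive differences. Il17d, the one above 70, had 89.6 and 123, a difference of 0.46, and is known to be made outside the immune system. Il17b differed by 0.70. Il17c, an epithelial cytokine, had 31.1 and 40.7 (0.39), and Il25, the cytokine of tuft cells, 53.8 and 66.6 (0.31). The pair made by type 17 lymphocytes, Il17a and Il17f, went in opposite directions, with -0.17 (27.5 and 24.4) and 0.27 (41.9 and 50.7). The family median was 0.35 for ligands and -0.09 for receptor chains, where Il17b was the single gene past 1.5-fold. Whether ligands and chains differ beyond array error cannot be told with 1 array per diet.

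The cytokines Il16 and Il34 belong to none of these families. Il34, a ligand of the macrophage receptor Csf1r, had 66.8 and 75.2, a difference of 0.17. Csf1r had 149 and 172 (0.21). Of 6 macrophage markers 2 were at least 1.5-fold higher, with summed intensities of 633 and 889, and their part in these differences was not tested. Il16, a chemoattractant for CD4 cells, had 53.1 and 42.0 (-0.34).

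Some of these genes lie next to each other in the RefSeq order of protein-coding genes. There were 12 such neighbouring pairs, of which 5 had differences of the same sign as deposited, 3 of them with a gene whose sign turned under another scaling (Il24, Il13 or Il17rc). Neither gene exceeded 70 in 8 of them. Il6st and its neighbour Il31ra differed by 0.34 and 0.37, and Il4 and its neighbour Il13 by 0.05 and 0.03. By contrast Il12rb2 and its neighbour Il23r differed by 0.10 and -0.79, and Il2 and Il21 by 0.12 and -0.43.

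The partner list held receptor chains, ligands and an adaptor under other names, and its genes differed about as much as all genes did. Of its 13 measured genes none was called higher and 1 lower. That is 7.69%, where 6.23% of all genes were called in either direction. The list had a median of -0.07, and 30.8% of its genes differed by at least 0.3, where 25.9% of all genes did. By intensity the rule named Osmr, the oncostatin M receptor chain that pairs with Il6st or Il31ra, at 144 and 186 (0.38), and Csf1r. The gene called lower was Tslp, the epithelial cytokine that signals through Il7r, at 36.5 and 22.9, a 1.60-fold difference below 70 on both arrays. Ifnlr1, which pairs with Il10rb, had 96.8 and 67.0 (-0.53). Tslp and Ifnlr1 were named after their values were seen.

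None of 20 measured kinases, STAT factors and inhibitors of the pathway was called, where 6.44% of all genes above 70 on either array were. Of the 20 genes 18 exceeded 70 on both arrays. The differences of the 20 ran from -0.42 to 0.30 with a median of -0.21, and 15 were negative. Jak1 and Jak2, kinases of many of these receptors, differed by 0.02 and -0.22. Stat3, the main factor downstream of interleukins 6, 10 and 22, had 664 and 816 (0.30). Socs3, an inhibitor that this factor induces, had 95.6 and 77.4 (-0.30). Stat6, which acts downstream of interleukins 4 and 13, had 547 and 490 (-0.16). Stat3, Socs3 and Stat6 were named after their values were seen.

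Most of the genes that interleukins are known to induce stayed inside 1.5-fold, though a larger share was called than among all genes. In either direction 18.8% of interleukin 22 and 17 targets and 33.3% of interleukin 4 and 13 targets were called, where 6.23% of all genes were. Of 16 measured targets of interleukins 22 and 17, 3 were called lower, 0 higher and 13 not called, where 2.81% of all genes were called lower. The list's median difference was -0.23. They were the acute-phase gene Saa3 (899 and 264), the antibacterial lectin Reg3g (2511 and 806) and the RNase gene Zc3h12a (170 and 112). Reg3b, the close relative of Reg3g, had 6516 and 5539 (-0.23). Of the 16 targets 12 had negative differences, among them Nos2 (86.4 and 60.4, -0.52) and Duox2 (305 and 235, -0.38). The 4 with positive differences, all below 1.5-fold, were the chemokine Cxcl1 (0.49), Saa2 (0.44), the siderophore-binding Lcn2 (0.35) and Csf3 (0.24). Of these 4, Cxcl1, Saa2 and Csf3 stayed below 70 on both arrays. Reg3b, Nos2, Duox2 and the 4 positive targets were named after their values were seen. The part of interleukins 17 and 22 in the target values was not tested.

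Of 12 targets of interleukins 4 and 13, 4 were called higher, 0 lower and 8 not called, where 3.42% of all genes were called higher. The list's median difference was 0.23. They were the matricellular gene Postn (983 and 2517), the scavenger receptor Mrc1 (117 and 272), the chitinase-like Chil3 (25.3 and 66.3) and the resistin-like Retnla (39.9 and 69.9). The last 2 stayed below 70 on both arrays. The goblet cell targets Retnlb and Clca1 differed by 0.08 and 0.02. Chil3, Retnla, Retnlb and Clca1 were named after their values were seen. Postn is also a gene of fibroblasts and Mrc1 is also in the macrophage marker list, both of which were higher on the psyllium array as given above. Their part in the target values was not tested.

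**Figure D3:**
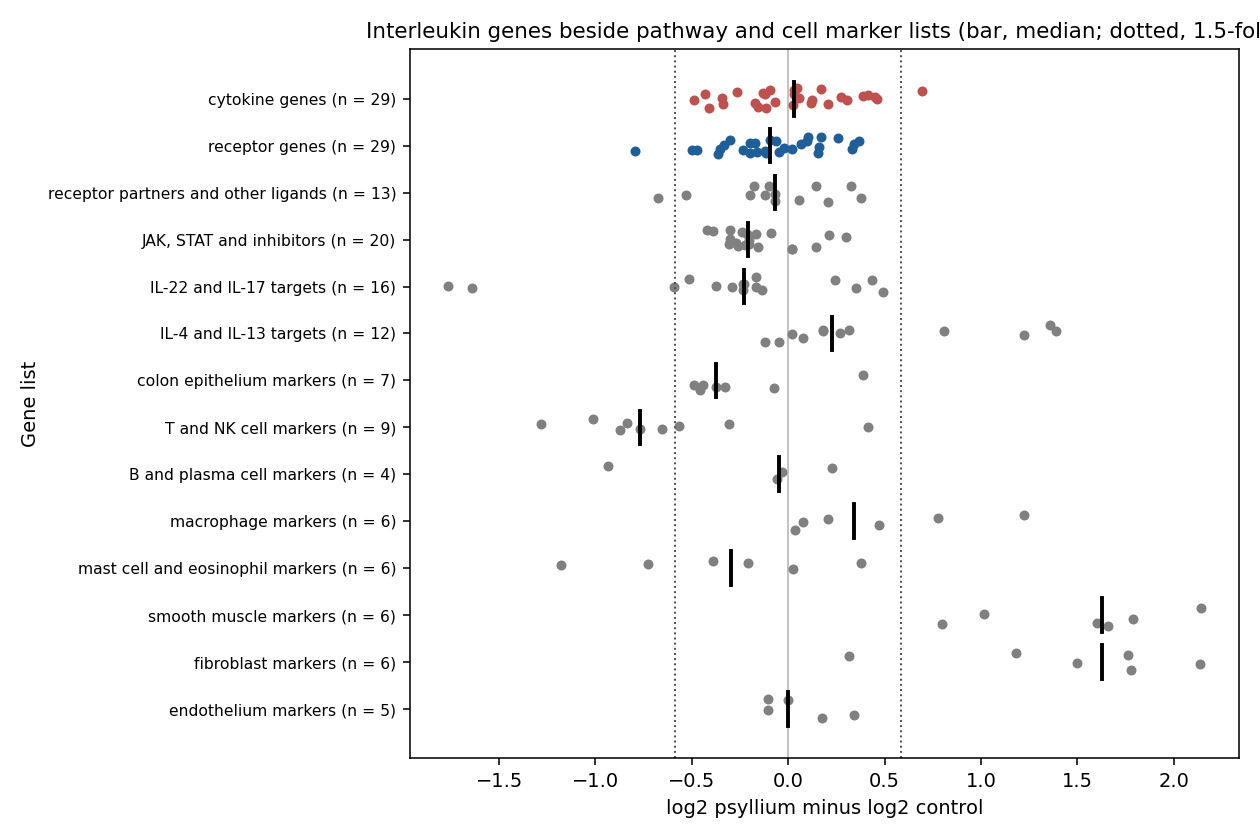
Log2 difference, psyllium minus control, of each gene (points) in the cytokine and receptor classes and in pathway and cell marker lists, with the median of each list (black bar) and 1.5-fold (dotted lines), 1 array per diet. The medians of cytokine (0.03) and receptor (-0.09) genes lie near 0. Those of T and NK cell markers (-0.77), smooth muscle markers (1.63) and fibroblast markers (1.63) lie outside the dotted lines.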

How the data were processed

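Expression was measured on 2 arrays, 1 per diet. Per the submitters' processing notes the authors used RMA and Affymetrix Expression Console, with no versions given, and deposited normalised intensities, linear in scale, for each probe set. Whether this is the antilogarithm of RMA output, and the genome build, are not given in the sources used here. The design assumed no scale, and the intensities were converted to log2 with no pseudocount.

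Of 41345 probe sets 23521 named 1 gene, 1814 several and 16010 none. Gene numbers were matched to a RefSeq table, which held all 58 interleukin genes under the same symbol. A gene with several probe sets was represented by the one with the highest mean, giving 22180 genes. Each interleukin gene had 1 probe set. Lists with older symbols were matched through the same table. The rule for naming took genes above 70 on either array or at least 1.5-fold apart, and their partners. Other interleukin genes, such as Il16, Il9r and Il21r, were also named with their values, outside that rule. From the partner, pathway and target lists the rule took up to 4 genes past both limits, or else the 2 of highest intensity. Most further genes of the lists are marked in the text as named after their values were seen. Some, such as the markers Cdx2, Muc2 and Kit, were named outside the rule without that mark.

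The genes, lists and limits were chosen with earlier results of these data known. The calling code was tested on simulated data. The number of arrays limits the precision. Python 3.11.15, pandas 2.3.3 and numpy 2.4.6 were used.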

Additional observations from a re-analysis of the deposited data

How the results depend on the processing

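With a limit of 50 in place of 70, 8 cytokine genes passed, and with a limit of 100, 2 did, against 4 as reported. With a pseudocount of 16, or with calls at 2-fold, 0 cytokine genes were called higher and 0 receptor genes lower, against 1 and 1, since Il17b and Il23r no longer passed. With no replicates no tool gives a p-value for these counts of 0. The other counts stayed within 1.5 times, and the medians within 0.1, under centring, repeated quantile normalisation, the mean of probe sets and removal of the intensity trend. The mean of probe sets repeats the reported values, because each interleukin gene has 1 probe set. Over 3 other scalings 5 of the 58 genes changed sign, Il12b, Il13, Il24, Il20rb and Il17rc, the last from -0.05 to 0.0073 after repeated quantile normalisation and 0.0095 after removal of the intensity trend. No paired analysis was possible because each diet has 1 array, and for the same reason no array could be left out. Genes below 70 rest on dim signal, so their differences are the least certain.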

Other observations

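A further probe set names Nup62, Il4i1 and Il4i1b together and was left out because it cannot be assigned to 1 gene. It had intensities of 98.6 (control) and 105 (psyllium), a difference of 0.09.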
